A study of Mus musculus with 56 samples.

Results

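The insulin-like growth factor binding protein (IGFBP) genes Igfbp2, Igfbp3, Igfbp4, Igfbp5, Igfbp6 and Igfbp7 were followed through a comparison of RNA amplification methods. They are 6 of the 15063 genes with a probe on the array, each with 1 probe, and were taken by gene symbol. The family was selected on its ratios between the cell lines in these data, so those ratios are described here without a test. The study hybridized 56 two-color mouse oligonucleotide arrays with labeled targets from a mouse ovarian epithelial line (OV) and from a fibroblast line (3T3). Both lines are grown in culture, carry no treatment in the labels, and stand for 1 line each, from 1 pool of total RNA. On 28 arrays OV was hybridized against 3T3, 4 arrays for each of 7 targets with OV in Cy5 on 2 of them and in Cy3 on the other two. The other 28 set a target against itself (3 arrays) or against a technical replica made from the same RNA (25 arrays). Among the replica arrays, 4 hold RNA of pooled neural stem cells (NSC), picked one by one from mouse neocortex at embryonic day 11.5 with no strain or sex in the labels.

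The targets of the 7 cell line comparisons were unamplified cDNA, reverse transcribed from 100 μg of total RNA, and amplified products. IVTIII is cRNA from 3 rounds of linear T7 transcription. GA is global polyadenylated PCR, in which the first strand is tailed and amplified from both ends by the same anchored primer. SMART is PCR with a template-switching primer, and SM37 is a SMART variant with another primer and a cooler reverse transcription. In these 4 methods 10 ng of RNA entered the first reaction and a diluted part of the product was amplified further, to a degree that suits single cells. SMART and GA were also started from 10 pg, about the RNA of a single cell. Technical replicas of OV were compared for every amplified target at 10 ng, and for SMART and GA at 1 ng, 100 pg and 10 pg.

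IGFBPs are secreted proteins that bind the insulin-like growth factors IGF1 and IGF2, lengthen their stay in the circulation and control how much of them reaches the receptor Igf1r. Many are cut by proteases, which frees the growth factor, and several bind matrix or cell surfaces and act without IGF. Igfbp7 binds IGFs only weakly and is better known as a matrix protein of vessels and stroma. Surface epithelium of the ovary and fibroblasts both belong to tissues in which IGFBPs set local IGF supply.

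Each value is the log2 ratio of an array's dyes in the direction OV over 3T3, where 1 means 2-fold higher in OV. The direction of the deposited ratios, Cy5 over Cy3, is likely but not settled, since the methods give both. Its basis is the gene Cdkn2a, which established 3T3 lines commonly lack, with 1.58 ± 0.11 (SD, n = 4) in unamplified cDNA, together with the epithelial genes Upk1b (4.26), Wt1 (3.65) and Krt8 (3.44), which the opposite reading would place higher in fibroblasts. Probes with a value numbered from 2303 to 20195 per array, fewest in SMART at 10 pg. Depth as signal over background is unknown, because the files hold ratios alone and give no reason for a missing value. GA at 10 pg stood apart. Over 9289 genes its mean ratios and the unamplified ones had r = -0.102, where the other 5 amplified targets had 0.458 to 0.750. In GA at 10 pg Cdkn2a was at -0.25 ± 0.17 (SD, n = 3) and Upk1b at -0.28, while Wt1 (0.82) and Krt8 (1.77) stayed above 0. Genes share arrays and are not independent replicates, so these are descriptions. Within SMART, arrays 1 and 4 correlated at r = -0.0687. Results that rest on GA at 10 pg are therefore given apart from the others.

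The 100 bases before the start of the 5 IGFBP genes measured on all unamplified arrays are shown 5′ to 3′, from RefSeq on GRCm38.p6, because Igfbp genes that are high and low in OV can then be compared. The genes with the largest ratios are Igfbp3, Igfbp4 and Igfbp7, and those lower in OV are Igfbp5 and Igfbp6. Capitals mark motifs searched on both strands, the TATA box letters TATAAA or the variant TATATA, then the AT-rich word TTTAAA, and last the GC box core GGGCGG with no overlap with another motif.
Igfbp3: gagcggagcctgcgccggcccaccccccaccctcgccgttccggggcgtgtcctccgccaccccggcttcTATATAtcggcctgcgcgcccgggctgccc
Igfbp4: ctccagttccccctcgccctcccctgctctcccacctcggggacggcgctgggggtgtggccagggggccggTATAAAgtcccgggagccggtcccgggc
Igfbp7: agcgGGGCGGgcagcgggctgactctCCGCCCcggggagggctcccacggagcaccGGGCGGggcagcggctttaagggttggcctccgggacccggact
Igfbp5: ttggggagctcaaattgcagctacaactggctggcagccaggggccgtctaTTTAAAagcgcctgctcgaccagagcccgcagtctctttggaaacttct
Igfbp6: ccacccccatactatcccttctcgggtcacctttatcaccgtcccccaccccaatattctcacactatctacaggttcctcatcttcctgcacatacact

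These stretches lie at chr11:7213924-7214023 on the minus strand (Igfbp3), chr11:99041144-99041243 on the plus strand (Igfbp4), chr5:77408046-77408145 on the minus strand (Igfbp7), chr1:72874866-72874965 on the minus strand (Igfbp5) and chr15:102144086-102144185 on the plus strand (Igfbp6). The TATA box motifs end 25 and 23 bases before the start in Igfbp3 (TATATA) and Igfbp4 (TATAAA), the place where a TATA box commonly sits. Igfbp5 holds TTTAAA from base -49 to base -44. Igfbp7 has none of these AT-rich motifs but 3 copies of GGGCGG, the GC box, and Igfbp6 has none of the 4 motifs. Of 32851 RefSeq starts, 5.56% hold TATAAA in the same window, 2.19% TATATA, 4.39% TTTAAA and 24.7% GGGCGG. Igfbp3, Igfbp4 and Igfbp7 are rich in G and C (77%, 75% and 77%, against a median of 55% over all starts), and Igfbp5 and Igfbp6 are at 55% and 51%. A match of letters is a description and does not show that a factor binds there. Igfbp2 and Igfbp5 are neighbors on chromosome 1, with 5590 bases between them, and Igfbp3 lies 3539 bases from Igfbp1 on chromosome 11. Igfbp1 is on the array but had a value on 2 of the 28 cell line arrays, and is no member here.

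Igfbp3, the main carrier of IGF in blood, had the largest ratio of the family in unamplified cDNA. Its log2 ratios were 4.11, 4.22, 2.77 and 3.82 on arrays 1 to 4, a mean of 3.73 ± 0.66 (SD, n = 4), or 13.3-fold higher in OV. Array 3 was the lowest, and even there OV was well above 3T3.

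After amplification little of this ratio was left. SMART gave 0.46, 0.61, 0.64 and 0.37 (mean 0.52 ± 0.12, SD, n = 4). SM37 gave 0.07, -0.18, 0.78 and 0.89 (mean 0.39 ± 0.52, SD, n = 4). The SMART arrays were all above 0 and close together, while those of SM37 fell into a low pair and a high pair. GA had values on 2 arrays, of opposite sign (-0.27 on array 1 and 0.35 on array 4), SMART at 10 pg had 1 (0.53), and IVTIII had none. In GA at 10 pg the 3 values were -0.01, 0.38 and -0.12. In each of the 3 amplified comparisons with at least 3 values, all arrays lay below the lowest unamplified array. The share of all genes that did so was not counted, so this is not shown to be particular to Igfbp3.

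Igfbp4, which holds IGFs back from their receptor, was the member measured most often, with a value on 27 of the 28 arrays. In unamplified cDNA it had 2.72, 2.39, 2.77 and 2.41 (mean 2.57 ± 0.20, SD, n = 4), or 5.94-fold higher in OV. All 4 arrays lay close together and were far above 0.

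In the amplified targets from 10 ng, Igfbp4 stayed above 0 on all arrays with a value. GA gave 1.63, 1.27, 0.26 and 0.62 (mean 0.95 ± 0.62, SD, n = 4). SM37 gave 0.27 on array 1, 1.53 on array 3 and 0.74 on array 4 (mean 0.85 ± 0.63, SD, n = 3). The ranges of these methods overlap one another widely, and they are ordered here by their means. SMART gave 0.69, 0.79, 1.04 and 0.41 (mean 0.73 ± 0.26, SD, n = 4). IVTIII gave 0.17, 0.02, 1.04 and 0.95 (mean 0.55 ± 0.53, SD, n = 4). In IVTIII arrays 1 and 2 were near 0 and arrays 3 and 4 near 1, whereas in GA the first 2 arrays were the higher ones.

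At 10 pg SMART and GA differed in the sign of Igfbp4. SMART gave 0.24, 0.45, 0.17 and 0.33 (mean 0.30 ± 0.12, SD, n = 4). GA gave -0.27, -0.52, -0.91 and -1.32 (mean -0.76 ± 0.46, SD, n = 4), the opposite direction on every array. Over the 5 amplified targets without GA at 10 pg, 19 of 19 values were above 0, and with it 19 of 23. All 6 amplified comparisons lay below the range of unamplified cDNA without overlap. How many of all genes did so was not counted, so this is not shown to be particular to Igfbp4.

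Igfbp7 was higher in OV in unamplified cDNA by 2.11, 1.95, 1.60 and 2.18 (mean 1.96 ± 0.26, SD, n = 4), or 3.89-fold. By its mean SM37 kept more of the ratio than the other methods at 10 ng, with 1.14, 1.23, 1.38 and 1.50 (mean 1.31 ± 0.16, SD, n = 4). These 4 arrays were close together and ended just below the lowest unamplified array. How many of all genes did so was not counted. The SM37 range overlapped those of GA (highest array 1.51) and SMART (1.28), and lay above that of IVTIII (1.09).

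The means of Igfbp7 in the other targets from 10 ng were close to each other. GA gave 0.81, 0.69, 0.61 and 1.51 (mean 0.91 ± 0.41, SD, n = 4). SMART gave 0.90, 0.98, 1.28 and 0.32 (mean 0.87 ± 0.40, SD, n = 4). IVTIII gave 0.91, 0.66, 1.09 and 0.72 (mean 0.85 ± 0.19, SD, n = 4). Their ranges overlap, with array 4 the highest in GA and the lowest in SMART. In GA at 10 pg Igfbp7 had 2.39, 1.61, 1.51 and 2.31 (mean 1.96 ± 0.46, SD, n = 4). The mean was close to that of unamplified cDNA and the ranges overlap, but arrays 1 and 4 lay above all unamplified arrays and array 3 below them. SMART at 10 pg had values on 2 arrays, of opposite sign (-0.61 on array 1 and 0.45 on array 2).

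Igfbp5, which binds matrix and is the most conserved of the family, was lower in OV. In unamplified cDNA it had -0.46, -0.44, -0.80 and -0.39 (mean -0.52 ± 0.19, SD, n = 4). In IVTIII it had -1.28, -1.16, -1.25 and -1.21 (mean -1.22 ± 0.05, SD, n = 4), further from 0 than on any unamplified array. Of the 4 members measured in IVTIII, only Igfbp5 had a larger ratio there than in unamplified cDNA. How many of all genes had a larger ratio or no overlap was not counted, so neither is shown to be particular to Igfbp5. GA (-0.94, -1.15, -0.44 and -0.37) and SM37 (-0.53, -0.49, -0.80 and -0.43) overlapped with unamplified cDNA. SMART gave 0.29, -0.20, -0.05 and -0.59 and crossed 0. GA at 10 pg gave -0.48, -1.26 and -0.31 on arrays 2 to 4, and SMART at 10 pg gave no value. Over all comparisons, 22 of 23 values of Igfbp5 were below 0.

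Igfbp6, which prefers IGF2 over IGF1, was also lower in OV. Its 4 unamplified arrays were the closest of the family, at -0.83, -0.65, -0.68 and -0.69 (mean -0.71 ± 0.08, SD, n = 4). SM37 gave -0.87, -0.89, -0.16 and -0.60 (mean -0.63 ± 0.34, SD, n = 4). SMART gave 0.05, -0.37, -0.30 and -0.89, and IVTIII -0.24, -0.43, 0.36 and -0.42, so that both held an array above 0. GA had 2 values, -0.22 and -0.68, and SMART at 10 pg had 0.05 and -0.48. In GA at 10 pg the values of Igfbp6 were -1.34, 0.49 and 0.53, the widest spread of any member in any comparison (SD 1.07, n = 3). Without GA at 10 pg, 13 of 16 amplified values were below 0.

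Igfbp2, a carrier of IGFs in fetal and brain tissue, was seldom measured, with a value on 8 of 28 arrays. Its ratios ran from -0.15 to 0.38, and the unamplified values were 0.01 and 0.16. No direction can be read from these. Of the others, Igfbp3 had a value on 18 arrays, Igfbp5 and Igfbp6 on 23 each and Igfbp7 on 26, beside a median over all genes of 60.7% of arrays. Whether a missing value means weak signal is not stated.

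**Figure D1:**
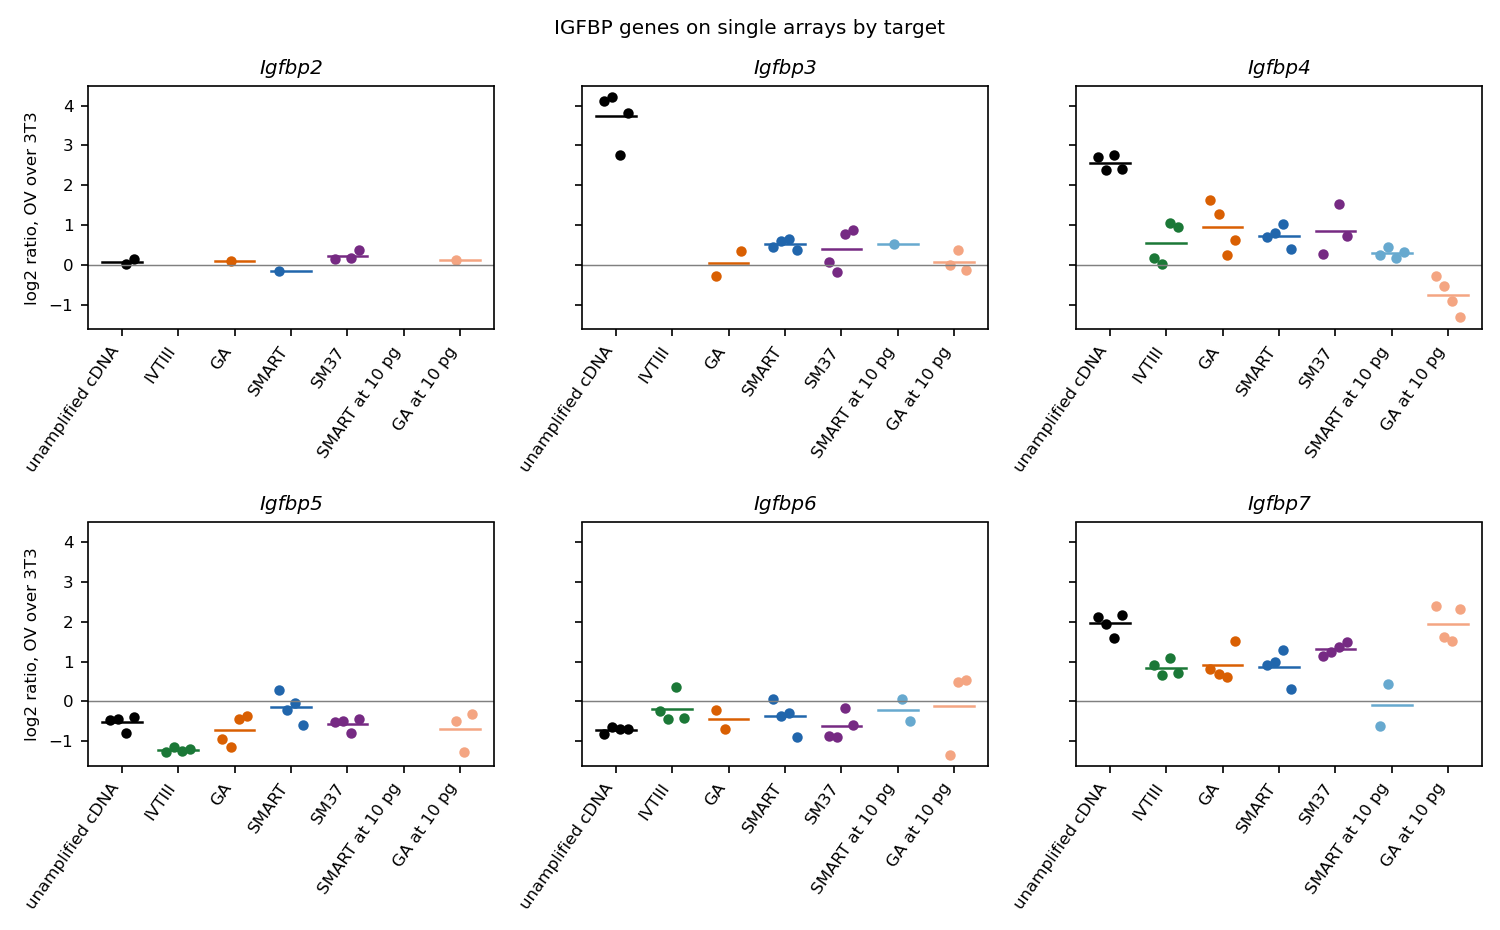
Log2 ratio of OV over 3T3 (y axis) of each IGFBP gene in the 7 targets (x axis). Points are single arrays in the order 1 to 4 and lines are means. Igfbp3 (mean 3.73), Igfbp4 (2.57) and Igfbp7 (1.96) stand highest in unamplified cDNA, and Igfbp4 falls below 0 in GA at 10 pg (-0.76).

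A fit by limma across all genes with a value on all 4 arrays called genes with an LOD, the log odds of differential expression, above 0. In unamplified cDNA 5 members were tested, of which Igfbp3, Igfbp4 and Igfbp7 were called higher and Igfbp6 lower, where 8.81% of 10185 genes were called higher and 7.30% lower. In IVTIII Igfbp7 was called higher and Igfbp5 lower among 4 tested (11.6% and 10.4% of all genes). In SMART Igfbp3, Igfbp4 and Igfbp7 were called higher among 5 tested (2.53% higher and 1.01% lower over all genes). In SM37 Igfbp7 was called higher and Igfbp5 lower among 4 tested (3.91% and 9.10%). In GA none of 3 was called (2.09% and 6.14%). At the looser limit of an adjusted p under 0.05, 3 of 3 passed. The share of all genes that passed this limit is not given, so nothing is read from it about the members. In SMART at 10 pg Igfbp4, the one member tested, was not called (6.04% and 2.93%), and in GA at 10 pg Igfbp7 was called higher among 2 tested (2.73% and 2.71%). The contrast chose the family, so these counts are given as descriptions. All 3 SMART calls were lost without array 2 and without array 3, which left 0 member calls in either case. The call of Igfbp7 in GA at 10 pg was lost without array 4 and with arrays scaled to the same spread, and that of Igfbp5 in SM37 without any of arrays 1 to 4 and with a dye term.

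The share of the unamplified log2 ratio that was left after amplification was set beside that of all genes that were over 2-fold in unamplified cDNA and had values on at least 3 arrays of both targets. Igfbp3 kept a share of 0.140 in SMART and 0.105 in SM37, where the medians over 564 and 447 genes were 0.320 and 0.276. Of those genes 16.7% and 27.7% kept less than Igfbp3. Igfbp4 kept 0.212 in IVTIII, 0.368 in GA, 0.286 in SMART, 0.329 in SM37 and 0.116 in SMART at 10 pg, where the medians were 0.435, 0.426, 0.320, 0.276 and 0.283. Igfbp7 kept 0.432 in IVTIII, 0.462 in GA, 0.444 in SMART and 0.669 in SM37. In GA at 10 pg the share was 0.998 for Igfbp7, -0.294 for Igfbp4 and 0.0224 for Igfbp3, beside a median of -0.156, and 63.4% of 508 genes had the opposite sign to unamplified cDNA.

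**Figure D2:**
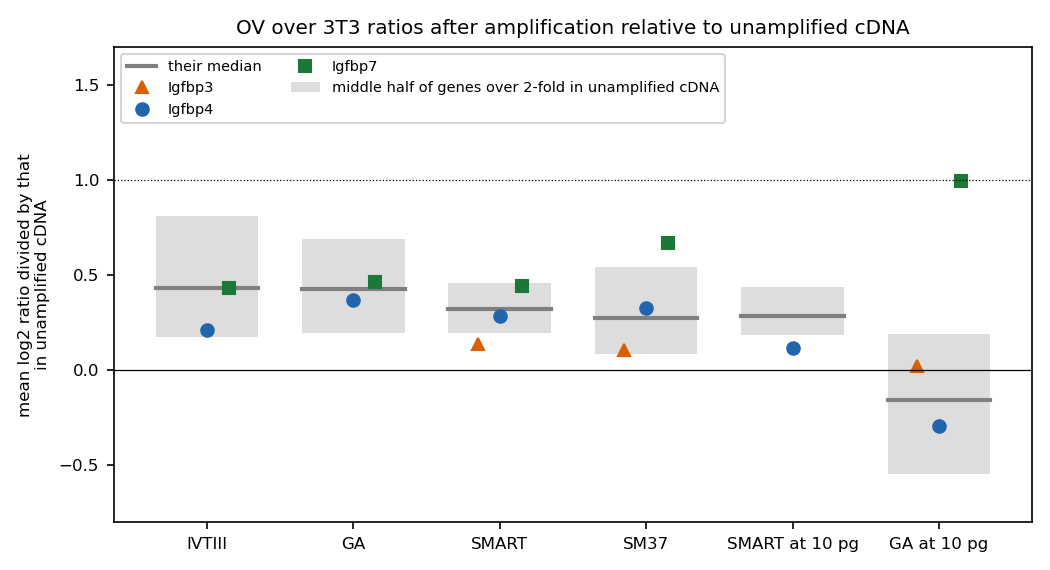
Mean log2 ratio of OV over 3T3 after amplification divided by that in unamplified cDNA (y axis, no unit) for the 6 amplified targets (x axis). Gray boxes span the quartiles and gray lines are the medians of genes over 2-fold in unamplified cDNA, and symbols are IGFBP genes with values on at least 3 arrays. Igfbp7 lies above the median in SM37 (0.669) and GA at 10 pg (0.998), and Igfbp3 below it in SMART (0.140).

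Genes with mean ratios most like those of a member were found by the root mean square difference over the comparisons in which both had values on at least 3 arrays, with at least 5 of the 7 shared. For Igfbp4 these were Krt7, a simple epithelial keratin (difference 0.24 in log2 over 5 comparisons), Rac2, a small GTPase of blood cells (0.27 over 6), and Bglap, the bone matrix protein osteocalcin (0.28 over 6). Krt7 had 2.70 in unamplified cDNA and -0.69 in GA at 10 pg, and Bglap 2.32 and -0.73. GA at 10 pg was among the comparisons that chose these genes, so the change of sign they share with Igfbp4 follows from the choice. For Igfbp7 they were Ccdc80, a matrix protein gene (0.41 over 5), the cytokine receptor gene Csf2ra (0.42 over 6) and Dhrs3, a retinal reductase gene (0.47 over 6). In GA at 10 pg these 3 had 2.21, 1.40 and 1.33, values that also entered the choice. Igfbp3 had values on at least 3 arrays in only 4 comparisons, too few for the rule.

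Ratios between technical replicas were not used to choose the family and were tested. They are turned to replica 1 over replica 2, so a gene without error lies at 0. With the same OV target in both dyes, members had log2 ratios of at most 0.11 in size in unamplified cDNA (5 members) and in GA (4 members), and Igfbp7 had -0.06 in IVTIII. Replicas of unamplified cDNA on 1 array gave at most 0.14, for Igfbp4. These arrays have no replicate.

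Between amplified replicas Igfbp4 differed most. In GA at 10 pg its log2 ratios were -1.62 and -1.44 on the 2 arrays, a mean of -1.53 (95% CI -1.86 to -1.21, adjusted p = 0.0424 from limma), or 2.89-fold. In IVTIII from 10 ng they were -0.90 and -0.75, a mean of -0.82 (95% CI -1.07 to -0.58, adjusted p = 0.0167), or 1.77-fold. Both arrays lay on the same side of 0 in each set. These were the only 2 calls among 47 tests of a member in a replica set, where 3.10% of all genes were called in GA at 10 pg and 3.04% in IVTIII, and the IVTIII call was lost with arrays scaled to the same spread.

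At 1 ng and 100 pg GA replicas gave Igfbp4 ratios of -0.37 and -0.15, and of -0.34 and -0.40, without a call (adjusted p = 0.251 and 0.208). At 10 ng the GA arrays disagreed, with -0.20 and 0.65. In SMART the arrays gave -0.19 and -0.06 at 10 ng, -0.03 and -0.03 at 1 ng, and -0.01 and 0.05 at 100 pg. At 10 pg SMART gave 0.74 and 0.22 (mean 0.48, 95% CI 0.11 to 0.85, adjusted p = 0.100), on the same side of 0 but not called. The difference between methods or amounts was not tested, and each set holds 2 arrays of the same 2 amplified products with the dyes swapped, so the p-values cover hybridization and labeling and not a new amplification.

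Igfbp7 and Igfbp6 also had large ratios in GA at 10 pg. Igfbp7 had -1.27 and -0.65 (mean -0.96, adjusted p = 0.0878), and Igfbp6 had 0.67 and 0.77 (mean 0.72, adjusted p = 0.0544), of which neither was called. Igfbp3 (0.01 and 0.15) and Igfbp5 (0.11 and 0.15) were near 0 on the same arrays. At 100 pg Igfbp7 had -0.37 and -0.49 in GA (adjusted p = 0.171) and 0.01 and 0.04 in SMART. In SMART at 1 ng all 6 members were measured, and the largest ratio on either array was 0.15, for Igfbp5.

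In the NSC pools Igfbp2, Igfbp3 and Igfbp4 differed between GA replicas, and Igfbp7 had no value on any of the 4 arrays. Igfbp2 had -0.63 and -1.004 (mean -0.82, adjusted p = 0.0180), Igfbp3 had 0.75 and 0.54 (mean 0.64, adjusted p = 0.0240) and Igfbp4 had 0.60 and 1.24 (mean 0.92, adjusted p = 0.0207). All 3 missed an LOD of 0. They passed at an adjusted p under 0.05, a limit that 1282 of 8766 genes passed. Igfbp5, the fourth member measured, had -0.07 and 0.01. SMART replicas of the NSC pools gave at most 0.27 for Igfbp3, Igfbp4 and Igfbp5, and 0.37 for Igfbp6 on the 1 array with a value. Of 9 neural progenitor markers on the array, 6 had a value on all NSC arrays. So did 7 of 12 fibroblast markers, 5 of 11 markers of ovarian surface epithelium and 3 of 8 of other cell types. These counts do not set the pools apart as neural, and a ratio of the cells to themselves cannot show how strongly a marker is expressed.

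Over all genes, LOD calls between the other replicas from 10 ng were made for 6.66% of genes in SM37, 0.078% in SMART and 0% in GA, where 161 GA genes had an unadjusted p under 0.05 in limma. For SMART they were 0% at 1 ng (145 genes at an unadjusted p under 0.05), 0% at 100 pg (501 genes) and 3.55% at 10 pg. For GA they were 2.04% at 1 ng and 1.35% at 100 pg, and for the NSC pools 4.24% with GA and 0.316% with SMART. The median size of the log2 ratio in GA at 10 pg was 0.72 over the 5 members tested and 0.25 over all genes, and in SMART at 1 ng 0.03 over 6 members and 0.04 over all genes. SM37 replicas had a value for a single member on a single array (Igfbp7, -0.09). With 2 arrays the fit has few degrees of freedom, and SMART and SM37 at 10 ng gave all genes the same error.

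**Figure D3:**
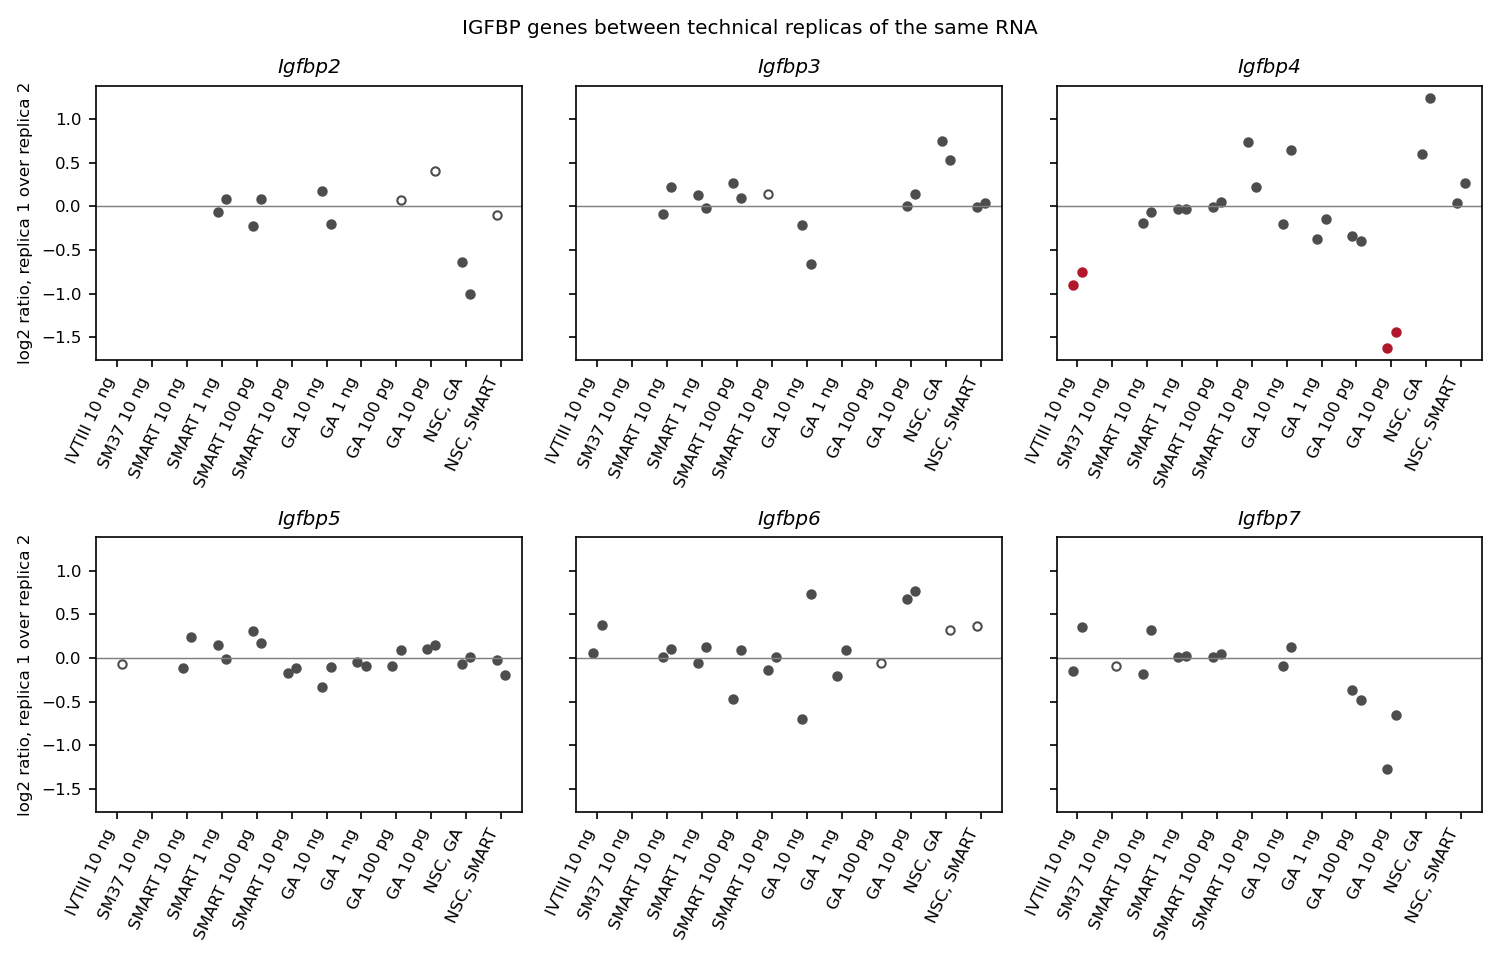
Log2 ratio of replica 1 over replica 2 (y axis) of each IGFBP gene in 12 sets of technical replicas (x axis, with the amount of RNA). Points are the 2 dye-swapped arrays of a set, red where the gene was called at an LOD above 0 and open where only 1 array had a value. Igfbp4 is called in IVTIII at 10 ng (mean -0.82) and GA at 10 pg (-1.53), and SMART at 1 ng lies near 0 for all members.

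A dye effect, the part of a ratio that stays with the dye when the dyes are swapped, was not called for any member. At an adjusted p under 0.05 from limma it was called for 0% of genes in every one of the 7 comparisons. Genes with an unadjusted p under 0.05 numbered 821 of 10185 in unamplified cDNA, 776 of 7405 in SMART and 108 of 1159 in SMART at 10 pg. They numbered 239 of 3972 in IVTIII and 178 of 5779 in SM37. In GA they were 49 of 5458, and in GA at 10 pg 19 of 4426. Of 24 tests of members, 3 had an unadjusted p under 0.05. They were Igfbp4 in unamplified cDNA, with a dye term of 0.17 (95% CI 0.03 to 0.32, adjusted p = 0.613), and Igfbp5 and Igfbp6 in SMART, with 0.26 (adjusted p = 0.464) and 0.25 (adjusted p = 0.471). The largest term of a member was -0.29 for Igfbp3 in unamplified cDNA, far below its ratio of 3.73. In SMART, by contrast, the term of Igfbp5 (0.26) was larger in size than its mean ratio (-0.14). That of Igfbp6 (0.25) stood beside a mean ratio of -0.38.

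Genes that act with IGFBPs were taken from 5 lists of 63 genes, of which 42 were tested in unamplified cDNA, 5 were called higher in OV and 2 lower. These 16.7% stand beside 8.81% of all genes called higher and 7.30% lower, so the share was near that of all genes. Among ligands and receptors, 1 of 5 tested genes was called, and its median log2 ratio was -0.07 beside 0.00 over all genes. Igf1r, the receptor that carries most IGF signals, was lower in OV by -0.63, -0.49, -0.37 and -0.53 on the 4 arrays (mean -0.50 ± 0.11, SD, n = 4, adjusted p = 0.00170), and its 3 probes had -0.57, -0.34 and -0.60. The call was lost without array 1, 2 or 4, and with a dye term in the fit. Igf2r, which takes up and destroys IGF2, had 0.94, 0.49, 0.57 and 0.46 (mean 0.62 ± 0.22, SD, n = 4), and missed an LOD of 0 at an adjusted p of 0.00288. Igf1 had 0.57, 1.30 and 0.84 on arrays 1, 3 and 4 and could not be tested, and Igf2 lay near 0 (mean -0.07 ± 0.11, SD, n = 4).

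Proteases and carriers of IGFBPs had 2 of 9 tested genes called, both higher in OV, with a median of 0.39. Pappa, the protease that cuts Igfbp4 and Igfbp5, had 0.32, 0.38, 0.42 and 0.47 (mean 0.40 ± 0.06, SD, n = 4, adjusted p = 0.00255), with its call lost when any array was left out or a dye term was added. Adam9, a membrane protease, had 1.07, 0.85, 0.78 and 1.04 (mean 0.93 ± 0.14, SD, n = 4, adjusted p = 0.000368), and its call held without each array. Among proteins with an IGFBP-like domain 1 of 6 was called, the matrix protein gene Ccn2, which was lower in OV (mean -0.68 ± 0.11, SD, n = 4, adjusted p = 0.000664; list median 0.13). The only tested Igf2 mRNA-binding protein gene, Igf2bp1, had -0.17 and was not called.

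Intracellular signaling of the receptors had 3 of 21 tested genes called, all higher in OV, with a list median of -0.08. The adaptor gene Shc1 had a mean of 1.28 ± 0.38 (SD, n = 4, adjusted p = 0.00104), a call lost without array 4. Pik3r2, a regulatory subunit of PI3 kinase, had 0.47 ± 0.11 (SD, n = 4, adjusted p = 0.00219), a call lost without any single array. The kinase gene Mtor had 1.81 ± 0.32 (SD, n = 4, adjusted p = 0.000253), but its 2 probes gave 0.04 and 3.57, so its gene mean rests on 1 probe. In the 6 amplified comparisons, 14 of 134 tests of these genes were called, 8 higher and 6 lower in OV, of which 8 of 21 fell in IVTIII, where 11.6% of all genes were called higher and 10.4% lower. In GA at 10 pg 0 of 21 were called by limma, beside 2.73% of all genes called higher and 2.71% lower. At the looser limit of an adjusted p under 0.05, 5 passed, and the share of all genes at that limit is not given. Igf1r was not called in any amplified comparison. Ccn2 was called lower in SMART (mean -0.68 ± 0.34, SD, n = 4, adjusted p = 0.0168), a call lost without array 2, 3 or 4. Ccn2 had 0.19 in IVTIII (3 arrays), 0.07 in GA (2 arrays) and 0.06 in SM37 (4 arrays, not called). Adam9 had 1.91 in IVTIII, where it was called, but 0.27 in SMART, -0.02 in GA and -0.03 in SM37 (3 arrays). Pik3r2 had -0.47 in IVTIII and was not called there.

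**Figure D4:**
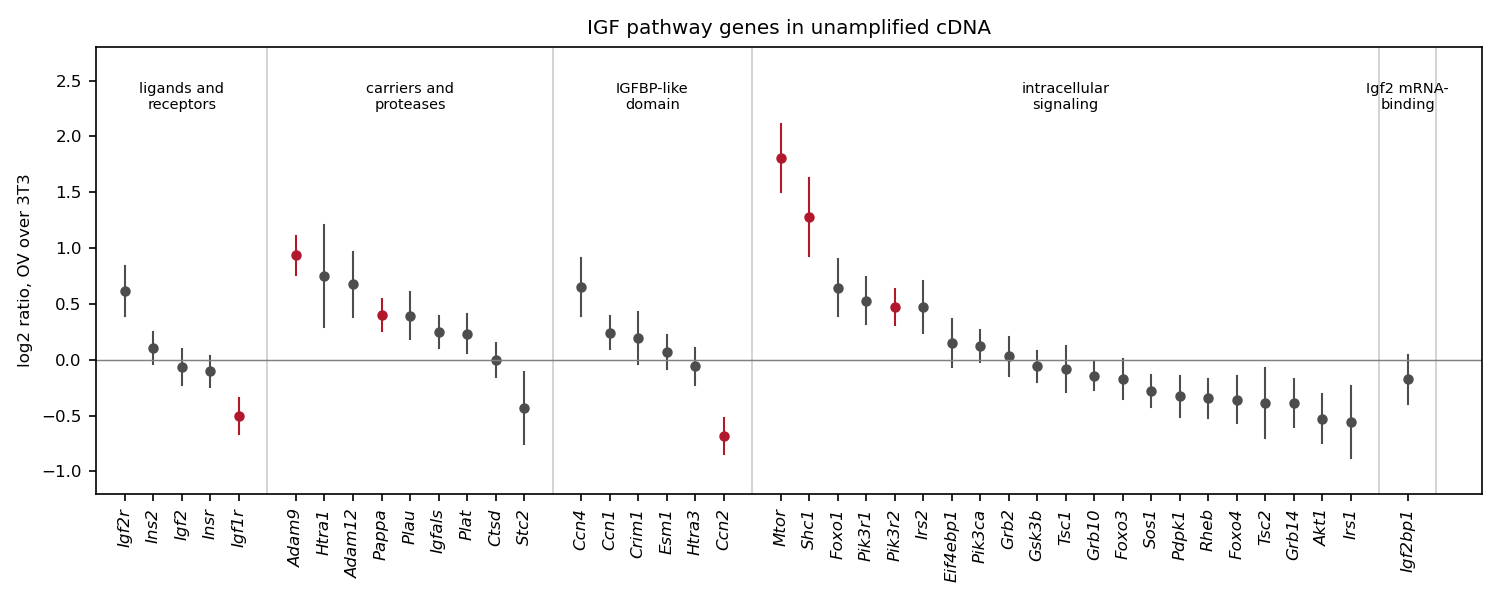
Log2 ratio of OV over 3T3 in unamplified cDNA (y axis) of 42 genes that act with IGFBPs, by list and falling ratio (x axis). Points are means of 4 arrays, bars are 95% confidence intervals from limma, and red marks an LOD above 0. Mtor (1.81) and Adam9 (0.93) are among 5 genes called higher, and Igf1r (-0.50) and Ccn2 (-0.68) are lower in OV.

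Markers of the labelled lines were described from the same fit in unamplified cDNA, where 8.81% of all genes were called higher and 7.30% lower. Upk1b, Wt1 and Krt8 had also served to set the direction of the ratios, so their sign is no check of the labels. Of 11 tested markers of ovarian surface epithelium 8 were higher in OV and 1 was lower, with the uroplakin gene Upk1b at 4.26 and the transcription factor Wt1 at 3.65, and with the keratin Krt18 as the lower one at -0.75. Of 9 tested fibroblast markers 3 were lower in OV, led by the mesenchymal factor Prrx1 at -3.33, and 2 were higher, the collagens Col1a1 (1.47) and Col3a1 (2.15), so OV expresses part of this list. None of 6 tested markers of immune, endothelial or muscle cells was called in unamplified cDNA (values from -0.45 to 0.18). In GA 1 of 3 tested was called higher in OV, the immune marker Cd68 (0.97), beside 2.09% of all genes. Ratios between lines cannot tell more cells of a kind from more RNA per cell.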

How the data were processed

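The 56 arrays and their dyes were grouped by the labels. The authors deposited log2 ratios, made from spot intensities of 65-mer arrays in GenePix after background subtraction and print lowess normalization in limma. The sign of each array was set from its dyes, taking Cy5 over Cy3, so that all ratios have OV, or the first replica, on top. One IVTIII array names 3T3 in both channels and 1 GA array is described as replicas: the dye text and the title were followed. Where labels and methods differ in an amount, the titles and methods were followed.

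Of 21997 probes 231 controls were left out, and 16632 probes with 1 symbol were averaged to 15063 genes. Genes with a value on every array of a comparison were fitted with limma 3.58.1 (lmFit, eBayes, prior proportion 0.01) in R 4.3.3, separately for each comparison and replica set, and called at an LOD above 0. Adjusted p-values are Benjamini-Hochberg over all genes tested. Arrays of a comparison share RNA pools, so p-values measure technical spread. The main fits took these arrays as independent, although the paper describes replicates that were hybridized with dye swaps. The fit was tested on simulated data. Python 3.11.15, pandas 2.3.3 and matplotlib 3.10.9 made summaries and figures.

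Members and gene lists were chosen with earlier results of these data known. The text names all members, called genes of the pathway lists with at most 4 from signaling, Igf1, Igf2, Igf1r and Igf2r, 3 genes most like each member that was over 2-fold in unamplified cDNA, and up to 4 markers a list. Alternatives covered missing values, the call rule, variance prior, array scale, dye term, blocks, probes and single arrays left out, and the omission of GA at 10 pg was added after seeing the data.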

Additional observations from a re-analysis of the deposited data

Results flagged for a closer look

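Igfbp4 had the opposite sign in GA at 10 pg to every other comparison with at least 3 values. All 4 arrays were below 0 there, with a mean log2 ratio of OV over 3T3 of -0.76, while all 4 unamplified arrays were above 0, as were all 19 values of the other 5 amplified targets. The difference was not tested. Of 508 genes over 2-fold in unamplified cDNA, 63.4% also had the opposite sign in GA at 10 pg, so this is not particular to Igfbp4. On the same target r with unamplified cDNA over all genes was -0.102, and OV replicas amplified from 10 pg by GA differed in Igfbp4 by -1.53 in log2; the part of either in this sign was not tested.

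Igfbp5 on array 3 of unamplified cDNA had -0.80, apart from the other 3 arrays at -0.46, -0.44 and -0.39, with a gap of 0.834 of the whole range, past Dixon's 95% limit for 4 arrays. Of 33 gene and comparison pairs examined this was the only such array, and chance gives about 1 in 20. On the same array Igfbp3 and Igfbp7 were at their lowest, at 2.77 and 1.60, Igfbp4 was at its highest, at 2.77, and Igfbp6 lay between its other arrays, at -0.68.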

How the results depend on the processing

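Counts of calls depended most on the call rule. For the cell line comparisons the share of all genes at an adjusted p under 0.05 is not given. The rises there are therefore not read as results about members or pathway genes. At an adjusted p under 0.05 in place of an LOD above 0, pathway genes called rose from 21 to 71 over the 7 comparisons and from 7 to 27 in unamplified cDNA, member calls from 12 to 19, genes called between replicas from 1478 to 3410 over 12 sets, and members called there from 2 to 5. With arrays scaled to the same spread, members called between replicas fell to 1, Igfbp4 in IVTIII losing its call, and 1 gene had a dye effect where none had before. The paper describes 2 independent replicates of each line with dye swaps, but the labels do not say which arrays pair. With hybridizations 1 and 2, and 3 and 4, as a replicate block, 12 pathway genes were called in unamplified cDNA, and neither the members' total (11) nor the pathway total (26) moved by over 1.5 times; the correlation within these blocks ran from -0.27 to 0.45, so the numbers are not shown to pair the arrays. The block ended the calls of Igfbp7 in GA at 10 pg and Igfbp5 in SM37, and gave a call to Igfbp5 in unamplified cDNA. When each array was left out in turn, 3 to 8 pathway genes were called in unamplified cDNA (4 without array 1 and 3 without array 4), 16 to 20 over all comparisons, and 8 to 11 members. Without GA at 10 pg the totals were 21 pathway and 11 member calls. Totals over comparisons or sets not named here stayed within 1.5 times of the value given, but small counts of single comparisons and those of single replica sets did not. With arrays scaled, genes called went from 360 to 824 in GA at 10 pg, from 206 to 356 in SMART at 10 pg, from 181 to 82 in IVTIII and from 6 to 0 in SMART, and at an adjusted p from 98 to 0 in GA at 100 pg and from 26 to 5 in SMART of the NSC pools. Of 34 member means, 6 of 121 values with an array left out and 3 of 136 under other settings changed sign, all for means without a call. Replica sets of 2 arrays were not refitted with an array left out, and the 9 cases with a value on 1 array have no test. Missing values limit Igfbp2 and Igfbp3 most.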
